A study of Drosophila melanogaster with 10 samples.

Results

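The mitochondrial ribosomal protein genes of Drosophila melanogaster were followed across 10 arrays of female heads. A gene was taken as a member when a probe set mapped to it alone and its current symbol began with mRpL (large subunit) or mRpS (small subunit), and the brightest probe set stood for a gene with more than 1. The rule gave 64 genes, 43 with an mRpL and 21 with an mRpS symbol, of 10843 genes with such a probe set. Subunits are counted by symbol here, which need not match the place of every protein. The RefSeq annotation holds 73 symbols of this form, and 9 had no probe set of their own on these arrays.

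The arrays measured 6 lines with mixed chromosomes, on 1 array each, and their parent strains Z30 and Fr, on 2 arrays each. A line's name gives the origin of its chromosomes, Z for Z30 and M for Fr, with the X (called the first) as the opening letter, then the second, then the third: MMZ, MZM, MZZ, ZMM, ZMZ and ZZM. Each array held total RNA from 100 to 200 pooled heads of nonvirgin females aged 3 to 5 days, with no treatment named. Z and M types of this species are known for differing in mate choice, and the series is titled for that behaviour. The labels give neither the origin of the small chromosome 4 and of the mitochondria in the lines, nor whether the arrays of a parent strain came from separate fly cultures. The p-values between parents therefore measure at most the spread between arrays, which may be technical.

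Mitochondria keep ribosomes of their own, which translate the few messages of the mitochondrial genome, all of them for subunits of the respiratory chain and ATP synthase. The ribosomal RNAs are made from mitochondrial DNA, whereas the ribosomal proteins are encoded in the nucleus, made in the cytosol and imported. Some of these proteins have counterparts in bacterial ribosomes, and others are found in mitochondria alone. Assembly therefore draws on the products of 2 genomes, and in flies mutations in genes of this ribosome are known to cause seizure sensitivity and slow growth.

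All values are the authors' deposited signals, a linear intensity for each probe set, and levels of different genes are not ranked as amounts of RNA because probe sets differ in brightness. Every array had the same mean signal of 500.1 after the highest and lowest 2% of probe sets were left out. Fr 1 and Z30 1 nevertheless stood apart: their highest signals were 28895 (Z30 1) and 26039 (Fr 1), against 46285 to 59815 on the other 8 arrays, and their hybridisation controls averaged 538 and 651, against 1500 to 2179. These arrays are called the smaller batch below, a split seen in the signals and not stated in the labels. Line MZM shared another feature with them. Each gene's deviation from its own mean fell with gene length on MZM (Spearman's rho across genes -0.39), Fr 1 (-0.34) and Z30 1 (-0.22), against -0.02 to 0.36 on the other 7 arrays, and median rank correlations with the other arrays were 0.820, 0.806 and 0.785, against 0.890 to 0.915. Photoreceptor genes, which mark the eye, were above the floor on every array (9 of 9 genes), while the median signal of 10 testis genes was 26.4 to 69.1, near the floor of 38.9, the 20th percentile of all signals, to which lower signals were raised.

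The members were moderately bright and steady. All 64 stayed above the floor on every array, and 63 passed the filter used for testing, a mean log2 signal over the 40th percentile; mRpS18B did not and was left untested. A member's median signal over the 10 arrays ranged from 96.8 (mRpS18B) to 2347 (mRpL28), with 623.8 in the middle, and single signals ran from 40.5 to 3934. The ratio of a member's highest to lowest array was 1.31 to 7.73, with a median of 1.98. This ratio was under 2 for 34 members, or 53.1%, against 26.3% of all probe sets past the filter, 2 to 3 for 20 members, and 3 or more for 10. The sets were not matched for brightness. An array's median signal was 566 to 808 for the members, against 396 to 477 for those probe sets. The brightest members were mRpL28, mRpL33 and mRpS16, all with counterparts in bacterial ribosomes, and the dimmest were mRpS18B, one of several S18-type proteins, mRpL22, whose bacterial counterpart lines the exit tunnel for the new chain, and mRpL41, a mitochondria-specific protein.

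By subunit, mRpL28 had signals of 1466 to 3934, mRpL33 of 1258 to 2463 and mRpS16 of 1289 to 2562. Among the dimmest, mRpL22 ranged from 75.2 to 359.7, mRpL41 from 79.2 to 239.4 and mRpS18B from 40.5 to 256.3. The widest ratios belonged to mRpL43 (7.73), a mitochondria-specific protein of the large subunit, and mRpS18B (6.33).

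**Figure D1:**
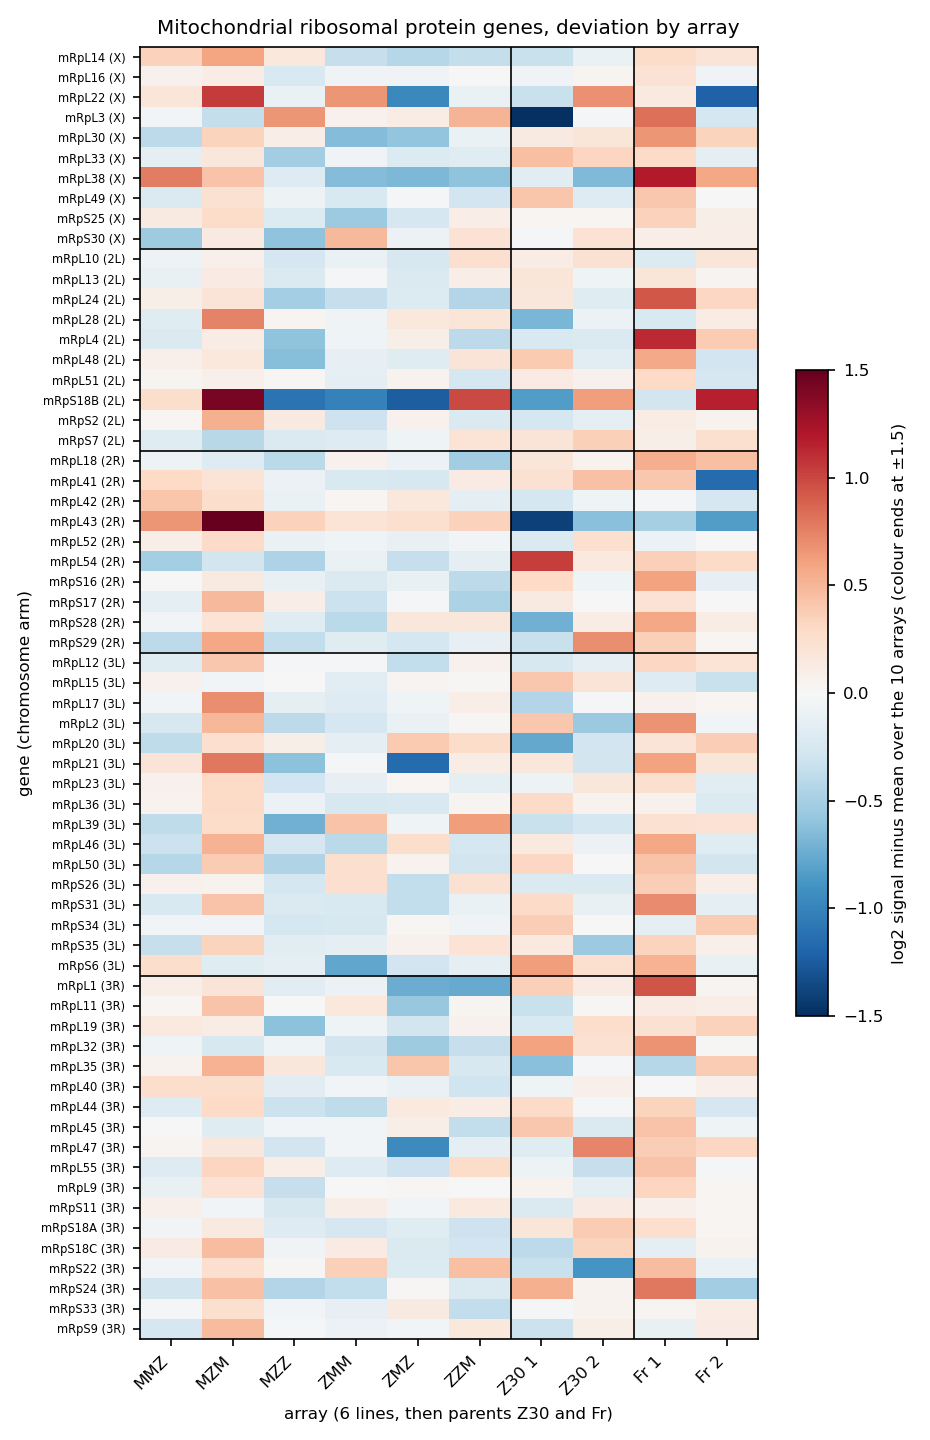
Deviation of each of the 64 genes (rows, grouped by chromosome arm) on each of the 10 arrays (columns, 6 lines and then the parents Z30 and Fr), as log2 signal minus the gene's mean over the 10 arrays. Columns MZM and Fr 1 are mostly above the mean (54 and 53 of 64 genes), and mRpL43 is above its mean on all 6 lines and below it on all 4 parent arrays.

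The genes are spread over the major chromosomes, with 10 on X, 10 on 2L, 10 on 2R, 16 on 3L and 18 on 3R. They are short: the median span in RefSeq was 909.5 bp, against 2965 bp for all genes past the filter. The spans of 38 of the 64 overlap another annotated gene, so a probe set's reading may not be from the named gene alone where the probes lie in the shared part.

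The level of the whole group differed from array to array. The median deviation of the 64 genes on the log2 scale was -0.04 in MMZ, 0.26 in MZM, -0.18 in MZZ, -0.12 in ZMM, -0.10 in ZMZ and -0.04 in ZZM. On parent arrays it was 0.00 and 0.01 in Z30 and 0.30 and 0.04 in Fr. MZM and Fr 1 thus stood above the rest, with 54 and 53 of 64 members over their own mean, against 13 to 39 on the other 8 arrays. Other genes under 1500 bp past the filter, 1480 in number, had medians of 0.20 in MZM and 0.27 in Fr 1 as well, with 0.23 in Z30 1, where the members had 0.00; on the other 7 arrays they lay between -0.11 and 0.02. The part of gene length in the members' levels was not tested further.

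Other gene groups differed in how far they shared this order of arrays. The cytosolic ribosomal, oxidative phosphorylation and proteasome lists were taken by symbol and include paralogs, such as RpL22-like, COX4L and Prosbeta4R2. The genes measured were 37 of 93, 73 of 94 and 39 of 48 in these lists. Cytosolic ribosomal proteins, which form the ribosomes of the cytosol (37 genes measured), had medians of 0.25 in MZM, -0.39 in Z30 1 and -0.37 in Fr 1. Nuclear subunits of oxidative phosphorylation, the partners of the proteins made in mitochondria (73 genes), had 0.32 in MZM, -0.36 in Z30 1 and -0.16 in Fr 1. Both groups were high in MZM with the mitochondrial ribosomal proteins, and both were low on Fr 1, where the mitochondrial ones were high. Mitochondrial aminoacyl-tRNA synthetases, which charge tRNAs (14 genes), came closer to the members' order, with 0.16 in MZM, 0.51 in Fr 1 and their lowest value, -0.22, in MZZ. Genes of mitochondrial DNA maintenance and transcription (10 genes) had 0.12 in MZM, 0.22 in Fr 1 and -0.17 in both MZZ and ZMM. Proteasome subunits, which form a protein-degrading complex (39 genes), had 0.33 in MZM, 0.06 in Fr 1 and -0.23 in MZZ.

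**Figure D2:**
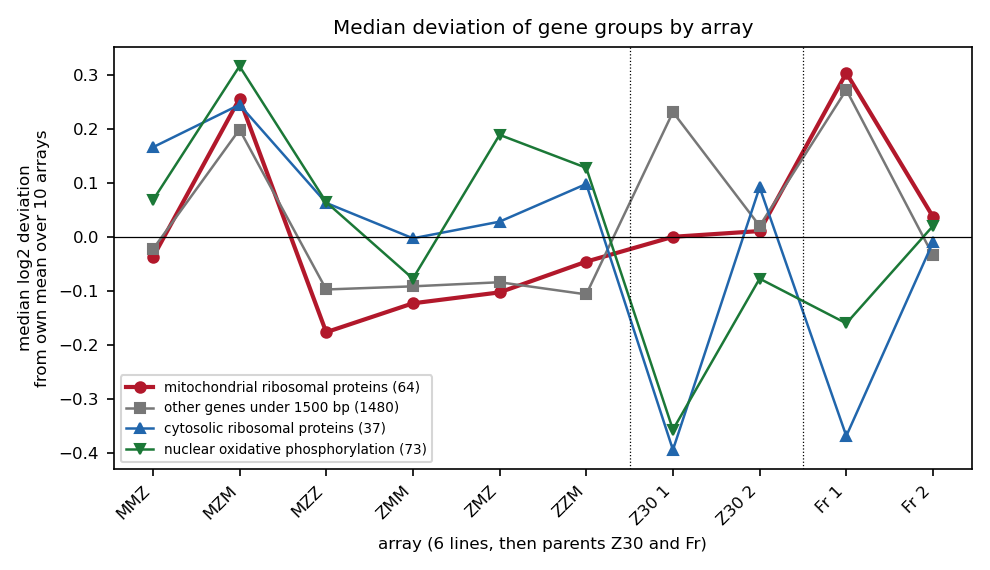
Median log2 deviation from the gene's own mean over 10 arrays (vertical axis) for 4 gene groups on each array (horizontal axis, 6 lines and then Z30 and Fr). The mitochondrial ribosomal proteins peak on MZM (0.26) and Fr 1 (0.30) and lie at 0.00 on Z30 1, whereas other genes under 1500 bp are high on all 3 of these arrays (0.20, 0.27 and 0.23) and cytosolic ribosomal proteins lie at -0.37 on Fr 1.

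Members moved together weakly. Over the 10 arrays the median Pearson correlation between 2 members was 0.26 across 2016 pairs, and 76.0% of pairs were positive. Without Fr 1, Z30 1 and MZM the median was 0.10, with 58.0% positive. The same figures were 0.26 and 0.30 for oxidative phosphorylation subunits, 0.41 and 0.28 for cytosolic ribosomal proteins, 0.21 and 0.24 for proteasome subunits, and 0.01 and 0.00 for all genes past the filter. The pairs share arrays and their normalization, and these correlations are a description of 10 or 7 arrays.

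The first comparison asked whether the parent strains differ. No mitochondrial ribosomal protein gene passed the test between Z30 and Fr. The members leaned lower in Z30: the difference was negative for 45 and positive for 19 of 64, with a median of -0.11 on the log2 scale, against 0.02 over all 8379 probe sets tested, of which 48.2% were negative. In limma with Benjamini-Hochberg adjustment over all probe sets, 0 of 63 members had an adjusted p under 0.05, against 0.0358% of probe sets (3 of 8379), and the lowest adjusted p of a member was 0.749. At an unadjusted p under 0.05 there were 2 members, both lower, or 3.17%, against 4.19% of probe sets in either direction and 2.34% lower. The arrays of the strains did not overlap for 19 members, or 29.7%, against 28.5% of probe sets, so the shares in either direction lay near the background. Of these 19, 17 were lower in Z30 and 2 higher, against 1144 lower and 1248 higher of 8379 probe sets. The split by direction was thus more one-sided among the members.

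The spread between arrays of 1 strain was as large as the difference between strains. The median absolute log2 difference of a member was 0.34 between the Z30 arrays and 0.33 between the Fr arrays, against 0.32 between Z30 1 and Fr 1 and 0.25 between Z30 2 and Fr 2. The median standard error of a member's difference was 0.34. Without Fr 1 the median difference was -0.05, and without Fr 2 it was -0.26, so that the lean depended on which Fr array was kept.

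mRpL38, a mitochondria-specific protein of the large subunit encoded on X, had the largest negative difference. Its signals were 605 and 432 in Z30, against 1549 and 1019 in Fr. The strains did not overlap, and the log2 difference was -1.30 ± 0.36 (SE, n = 2 each; limma adjusted p = 0.749). Taken within each batch the difference was -1.36 in the smaller batch (Z30 1 against Fr 1) and -1.24 in the larger one (Z30 2 against Fr 2). With the batch as a block the standard error was 0.27 and limma's adjusted p was 0.000133, and 0.0923 when the blocked fit borrowed no variance trend from other probe sets. In the blocked fit of the parents the standard error came largely from that trend. Its p-values therefore carry little of a gene's own spread between arrays.

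mRpL4, whose bacterial counterpart reaches into the exit tunnel, is encoded on 2L. It had 288 and 289 in Z30, against 731 and 438 in Fr, without overlap. Its log2 difference was -0.97 ± 0.40 (SE, n = 2 each; limma adjusted p = 0.9998), with -1.35 for Z30 1 against Fr 1 and -0.60 for Z30 2 against Fr 2. The blocked limma fit gave an adjusted p of 0.0249, and 0.233 without the variance trend. Its span overlaps CG4278, whose own difference was 0.46 ± 0.36 (SE), in the opposite direction.

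mRpL3, an X-linked gene whose bacterial counterpart lies close to the site of peptide bond formation, did not hold its direction. It had 133 and 370 in Z30, against 666 and 312 in Fr. The ranges overlapped, and the log2 difference of -1.04 ± 0.62 (SE, n = 2 each; limma adjusted p = 0.9998) came from -2.32 in the smaller batch and 0.25 in the larger. The blocked limma fit nonetheless gave it a standard error of 0.32 and an adjusted p of 0.0242, and 0.472 without the variance trend. The gap between its batches thus had little weight in the blocked p-value. With the block, mRpL38, mRpL3 and mRpL4 were the members called, all lower in Z30, or 4.76% of 63, against 6.58% of all probe sets in either direction and 3.76% lower; without the trend no member was called.

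The largest positive differences were of dim genes with wide spread. mRpL22, on X, had 138 and 279.5 in Z30, against 193 and 75.2 in Fr, with a log2 difference of 0.71 ± 0.75 (SE, n = 2 each; limma adjusted p = 0.9998). mRpL41, on 2R, had 206 and 239 in Z30, against 234 and 79.2 in Fr, and a difference of 0.71 ± 0.69 (SE, n = 2 each; limma adjusted p = 0.9998). In both genes the single low array was Fr 2, and the larger batch alone gave 1.89 and 1.6, against -0.48 and -0.18 in the smaller batch. By symbol, the 43 mRpL genes had a median difference of -0.16 and the 21 mRpS genes, mRpS30 among them, -0.10. By family, 40 proteins with bacterial counterparts had -0.24 and 24 mitochondria-specific ones -0.05, with negative differences for 28 and 17.

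The second comparison set the 6 lines against the 4 parent arrays, which carry chromosomes of 1 strain only, with the origin of each chromosome in the model. mRpL43 was brighter in every line than in any parent array, and most other members leaned the other way. The difference was negative for 47 and positive for 17 members, with a median of -0.14, against -0.04 over all probe sets (54.1% negative). In limma 0 of 63 members and 0.0% of 8379 probe sets had an adjusted p under 0.05. At an unadjusted p under 0.05 there were 9 members, 1 higher and 8 lower, or 14.3%, against 15.9% of probe sets (8.03% higher and 7.88% lower). Lines and parents did not overlap for 3 members, mRpL43, mRpL54 and mRpL32, or 4.76% of those tested, against 4.06%.

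mRpL43 had signals of 588 in MMZ, 1090.4 in MZM, 474 in MZZ, 429 in ZMM, 441 in ZMZ and 472 in ZZM. The parents had 141 and 241 in Z30, and 264 and 208 in Fr. The lowest line, ZMM, was thus above the highest parent array, Fr 1, and MZM stood far above the other lines. The means were 582 ± 255 in lines (SD, n = 6) and 214 ± 53.6 in parents (SD, n = 4), and the fitted log2 difference was 1.40 ± 0.27 (SE), or 2.64-fold higher. limma's unadjusted p was 0.000382, the 24th lowest of 8379, but the adjusted p was 0.123, and the gene was not called.

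The difference of mRpL43 was 1.29 ± 0.33 (SE) with the array batch as a block, which equals the value within the 8 arrays of the larger batch (limma adjusted p = 0.447). It was 1.09 without Fr 1, Z30 1 and MZM (limma adjusted p = 0.188), and 1.22 without MZM alone (0.112). Leaving out 1 array at a time gave 1.22 to 1.62, with adjusted p from 0.0519 to 0.488. The span of mRpL43 on 2R overlaps sigmar, whose probe set had a difference of -0.09 ± 0.25 (SE). The differences of mRpL43 by parent strain and by chromosome origin were each smaller than their standard error. Z30 against Fr gave -0.35 ± 0.53 (SE). The first, the second and the third chromosome from Z30 against Fr gave -0.49, 0.24 and -0.26 (SE 0.51 each). The origin models held no term for lines against parents, so the gap between those groups widened the standard errors by origin. A difference of mRpL43 by strain or origin is not shown to be absent.

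The largest negative differences belonged to mRpL54 and mRpL32, both large-subunit proteins. mRpL54, a mitochondria-specific protein encoded on 2R, had 206 in MMZ, 243.5 in MZM, 213 in MZZ, 275 in ZMM, 232 in ZMZ and 268 in ZZM, against 605 and 327 in Z30 and 378 and 358 in Fr. Its log2 difference was -0.76 ± 0.23 (SE, n = 6 and 4; limma adjusted p = 0.198), and -0.52 with the batch as a block. mRpL32, on 3R, whose maturation by a mitochondrial protease is known in yeast and mouse, had 262 in MMZ, 233 in MZM, 262 in MZZ, 227 in ZMM, 190.5 in ZMZ and 216 in ZZM, against 418 and 322 in Z30 and 437 and 278 in Fr. Its difference was -0.63 ± 0.23 (SE, n = 6 and 4; limma adjusted p = 0.260), and -0.38 with the block. The span of mRpL32 overlaps CG1750, a dim gene left untested, whose own difference was -0.84, in the same direction. Whether the mRpL32 reading is from mRpL32 alone was not tested. For mRpL54 and mRpL32 the lines lay below all parent arrays, and the blocked difference was smaller than the unblocked one.

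The lean of the group toward lower signal in lines moved with the array set, and other gene lists are given beside it. The members' median was -0.05 with the batch as a block, -0.11 without Fr 1, Z30 1 and MZM, -0.04 without Fr 1 alone and -0.18 without Fr 2 alone. Other genes under 1500 bp had a median of -0.18, and oxidative phosphorylation subunits 0.25. Centring each array on its own median moved the median of all probe sets by 0.11 and that of the members to -0.03, with 33 of 64 negative. Muscle genes were higher in lines for 11 of 11 measured, with a median of 1.06 and a summed signal of 43519 to 97204 in lines, against 17745 to 52068 in parents; with the batch as a block the median was 0.60. Summed fat body signal did not overlap, at 168672 to 190893 in lines, against 91201 to 164050 in parents. The fat body median was 0.30 over 8 genes, and 0.16 with the block. The summed signal of all tested probe sets did not overlap either, at 1.080e+07 to 1.156e+07 in lines, against 9.399e+06 to 1.071e+07 in parents. The separation was thus not particular to the fat body genes. Synaptic vesicle genes were higher in lines for 11 of 12, with a median of 0.40 and 0.10 with the block, and a summed signal of 5438 to 15743 in lines, against 6160 to 12788 in parents. Photoreceptor genes were higher for 7 of 9 (median 0.28, and 0.15 with the block), with sums of 88832 to 121831 in lines, against 63726 to 88896 in parents. Ovary genes had a median of -0.46 over 12 genes, and a summed signal of 1432 to 2118 in lines, against 1754 to 3241 in parents. Most of the ovary genes were dim: 3 of 12 passed the filter, and the median signal ran from 44.15 in MZZ to 163 in Fr 1. The ovary median was -0.03 with the block, and their deviations were 0.66 and -0.15 in Z30 1 and Z30 2, and 0.76 and -0.03 in Fr 1 and Fr 2. Glial genes had a median of 0.02 over 7 genes, hemocyte genes -0.17 over 8, and testis genes, near the floor, -0.23 over 10. With the block the glial and hemocyte medians were 0.10 and -0.01. In pooled heads, fewer cells of a type and less RNA per cell cannot be told apart. The part of these markers in the members' values was not tested.

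**Figure D3:**
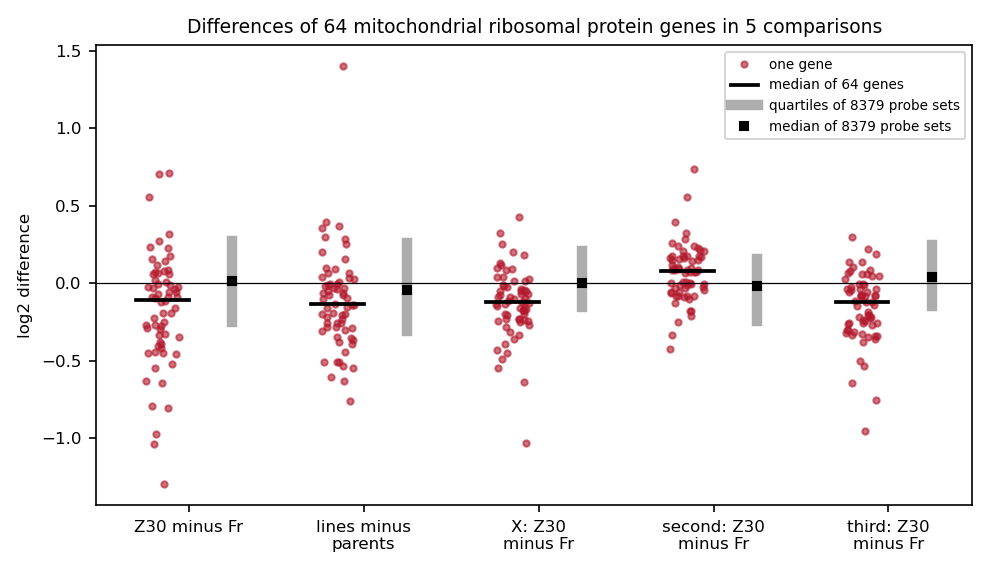
Log2 differences of the 64 genes (points, with their median as a line) in the 5 comparisons, beside the median and quartiles of all 8379 tested probe sets. The medians of the genes are -0.11, -0.14, -0.12, 0.08 and -0.12 from left to right, and mRpL43, at 1.40, is the single point above 1 (lines minus parents).

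The remaining comparisons took each chromosome in turn and set the 5 arrays that carried it from Z30 against the 5 that carried it from Fr, with the other chromosomes in the model. For the first chromosome the members' median was -0.12, with 49 negative and 15 positive, against 0.00 over all probe sets. Other genes under 1500 bp had medians of -0.06 for this chromosome, 0.05 for the second and -0.03 for the third. Of these short genes 61.1%, 40% and 54.7% were negative. In limma 0 of 63 members were called, against 0.0597% of probe sets, and at an unadjusted p under 0.05 there were 3, mRpL38 and mRpL14 lower and mRpS30 higher, or 4.76%, against 2.47% of probe sets (1.05% higher and 1.42% lower). All 3 are encoded on X. The arrays did not overlap for mRpL14 alone, against 0.943% of probe sets.

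mRpL14, whose bacterial counterpart lies where the subunits meet, had 365 in ZMM, 344 in ZMZ and 362 in ZZM, with 366 and 429.8 in Z30, all with the first chromosome from Z30. With that chromosome from Fr it had 589 in MMZ, 694 in MZM and 516 in MZZ, with 561 and 527 in Fr. The highest Z30-origin array was below the lowest Fr-origin array. The means were 373 ± 32.9 and 577 ± 71.3 (SD, n = 5 each), the log2 difference was -0.64 ± 0.19 (SE, 1.56-fold lower), and limma's adjusted p was 0.999. In the 6 lines alone it was -0.86, and between the parent strains -0.46 ± 0.34 (SE, limma adjusted p = 0.9998).

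mRpL38 differed by X origin in the lines as it did between the parents. With the first chromosome from Z30 it had 434 in ZMM, 427 in ZMZ and 447 in ZZM. With that from Fr it had 1155 in MMZ, 913 in MZM and 596 in MZZ. The lines did not overlap, but over all 10 arrays Z30 1 (605) reached above MZZ. The log2 difference over 10 arrays was -1.03 ± 0.26 (SE, n = 5 each; limma adjusted p = 0.581), with the batch as a block limma's adjusted p was 0.126, within the larger batch it was -1.04, and in the lines alone -1.23. The 6 lines share no array with the parents, so the value in lines and the value of -1.30 between parents rest on separate arrays. The gene was, however, named for the largest negative difference between the parents and over the 10 arrays, which hold the lines. A similar sign in lines and parents was thus partly built in.

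mRpS30, which despite its symbol is placed in the large subunit in mammals, had a log2 difference of 0.42 ± 0.19 (SE, n = 5 each; limma adjusted p = 0.999) for the first chromosome, with 582 ± 95.3 and 473 ± 115 (SD). The largest positive difference after it was that of mRpL39, at 0.32 ± 0.18 (SE). Both were within the range over which the arrays of the groups overlapped.

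For the second chromosome the members leaned slightly higher with the Z30 copy. The median was 0.08, with 40 positive and 24 negative, against -0.02 over all probe sets. In limma 0 of 63 members were called, against 0.0358% of probe sets, 0 had an unadjusted p under 0.05, against 4.08%, and 0 had groups that did not overlap, against 1.11%. The largest negative differences were of mRpL4 (-0.42 ± 0.27, SE) on 2L and mRpL18 (-0.33 ± 0.24, SE) on 2R, whose bacterial counterpart binds a ribosomal RNA. The largest positive ones were of mRpL22 (0.56 ± 0.46, SE) and of the untested mRpS18B (0.74), the dimmest members. mRpS18B had 190 in ZZM, 256 in MZM and 44.2 in MZZ, with 53.5 and 147 in Z30, against 115 in MMZ, 47.1 in ZMM and 40.5 in ZMZ, with 78.8 and 214 in Fr, so that its groups overlapped widely.

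For the third chromosome, which carries 34 of the members, the median was -0.12, with 50 negative and 14 positive, against 0.04 over all probe sets. In limma 0 of 63 were called, against 0.0955% of probe sets, and at an unadjusted p under 0.05 there were 3, all lower, or 4.76%, against 4.49% in either direction and 2.59% lower. These were mRpL39, mRpS30 (-0.50 ± 0.19, SE) and mRpL21 (-0.65 ± 0.29, SE), the last named after its values were seen. The largest negative difference of any member was that of the dim, untested mRpS18B (-0.95), which is encoded on 2L and whose groups overlapped. The arrays did not overlap for 2 members, mRpL39 and mRpL11, or 3.17% of those tested, against 1.58%. mRpL11, the counterpart of a bacterial protein at the base of the ribosomal stalk and also named after its values were seen, had 441 ± 76.5 with the Z30 copy and 553 ± 61.1 with the Fr copy (SD, n = 5 each). Its second, dimmer probe set gave -0.07 ± 0.27 (SE) where the brighter gave -0.33 ± 0.19.

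mRpL39, a mitochondria-specific protein encoded on 3L, had the lowest p of any member by origin. It had 359 in MMZ, 282 in MZZ and 444 in ZMZ, with 368 and 388 in Z30, all with the third chromosome from Z30. With that chromosome from Fr it had 564 in MZM, 627 in ZMM and 717 in ZZM, with 543.5 and 542 in Fr. No array of the Z30 copy reached any of the Fr copy. The means were 368 ± 58.4 and 599 ± 74.5 (SD, n = 5 each), the log2 difference was -0.76 ± 0.18 (SE, 1.69-fold lower; limma adjusted p = 0.296), and it was -0.74 in the larger batch and -0.75 in the lines alone. Between the parents it was -0.52 ± 0.34 (SE, limma adjusted p = 0.9998), with -0.56 for Z30 1 against Fr 1 and -0.48 for Z30 2 against Fr 2. Its span overlaps Zip71B, whose difference for the third chromosome was 0.70 ± 0.39 (SE), in the opposite direction. The largest positive differences for this chromosome were 0.30 ± 0.28 for mRpS6 and 0.22 ± 0.17 for mRpL15 (SE), both on 3L and both with overlapping groups.

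**Figure D4:**
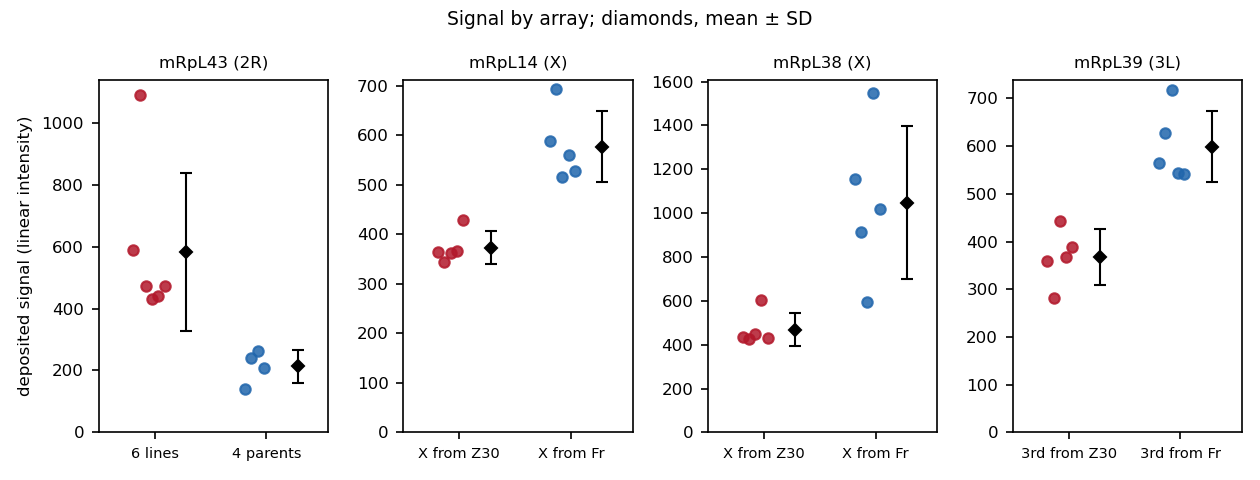
Deposited signal (linear intensity, axis from 0) of mRpL43, mRpL14, mRpL38 and mRpL39 on each array (points), with mean ± SD as diamonds; lines stand left of parents, and arrays with the named chromosome from Z30 stand left of those with it from Fr. The groups are separate for mRpL43 (429 to 1090.4 in lines, 141 to 264 in parents), mRpL14 and mRpL39, and overlap by 1 array for mRpL38.

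Small p-values were more frequent by the origin of a gene's own chromosome than by that of the others, for members and for all genes alike. Among the 63 tested members, 5 (7.94%) had an unadjusted p under 0.05 for the origin of the chromosome that carries the gene, against 8.11% of 6767 genes past the filter, and 3 (4.76%) had no overlap, against 3.04%. For the origin of the other 2 chromosomes, 1 of 126 values (0.794%) had an unadjusted p under 0.05, against 1.5%, and 0 had no overlap, against 0.355%. The members' share by own chromosome thus lay at the background. The median difference by own chromosome was -0.19 for the 10 members on X (8 negative), 0.09 for the 20 on the second (7 negative) and -0.16 for the 34 on the third (25 negative).

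The group's lean by origin was not seen without the arrays that stood apart. Without Fr 1, Z30 1 and MZM the members' median was -0.01 for the first chromosome, -0.02 for the second and -0.01 for the third, with 33, 35 and 32 of 64 negative. MZM carries the first and the third chromosome from Fr and the second from Z30, and Fr 1 carries all from Fr. The arrays left out include those where the members were highest, MZM (0.26) and Fr 1 (0.30), so a smaller lean without them was built in. Why these arrays stood apart was not tested. Synaptic vesicle genes showed the opposite signs in the full set, with medians of 0.37, -0.40 and 0.31 over 12 genes and a level of -1.07 in MZM. Within the 8 arrays of the larger batch, which still hold MZM, the members' medians were -0.07, 0.09 and -0.08. Single arrays moved them too: without ZMM alone the first-chromosome median was -0.05, without MZM alone the second-chromosome median was -0.01, and without MZZ alone the third-chromosome median was -0.01.

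Proteins of the same ribosome with other symbols gave no call either. tko (technical knockout, on X) encodes the S12 protein of the decoding site, and its mutants are known for bang sensitivity. It had 411 to 915 in lines, against 705 and 706 in Z30 and 785 and 595 in Fr, and its difference between lines and parents was -0.22 ± 0.18 (SE, limma adjusted p = 0.549). bonsai (on 2R), which encodes the S15 protein, had 608 to 747 in lines, against 929 and 839 in Z30 and 1349 and 1004 in Fr. The groups of bonsai did not overlap, and its difference was -0.58 ± 0.17 (SE, n = 6 and 4; limma adjusted p = 0.184), with -0.44 when the batch was a block.

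The rest of mitochondrial gene expression held no call in the unblocked fits. Translation factors (8 genes measured, 4 of them tested), which start, extend and end the protein chain, had a median of -0.21 for Z30 against Fr and -0.13 for lines against parents, where the batch as a block turned the sign, to 0.16. mEFTu1, an elongation factor that brings charged tRNA to the ribosome, had 617 and 716 in Z30, against 1408 and 979 in Fr. The difference was -0.82 ± 0.33 (SE, n = 2 each; limma adjusted p = 0.9998), with 0.0394 in the blocked limma fit and 0.306 there without the variance trend. The aminoacyl-tRNA synthetases (14 measured, 8 tested) had a median of -0.14 for Z30 against Fr and -0.21 for lines against parents, the last -0.04 with the block. Genes of mitochondrial DNA maintenance and transcription (10 measured, 9 tested) had -0.11 and -0.29, the last -0.13 with the block.

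Oxidative phosphorylation subunits (73 measured, 60 tested, and 3 at the floor on every array) had a median of -0.12 for Z30 against Fr, close to the members' -0.11. In that comparison 0 were called in limma, and 1 higher and 7 lower when the batch was a block, or 13.3% against 6.58% of probe sets, and 0 of the list without the variance trend. For lines against parents they had 21 of 60 at an unadjusted p under 0.05, all higher, or 35%, against 15.9% of probe sets (8.03% higher), where the members had 1 higher and 8 lower. Their median was 0.25, and 0.13 with the batch as a block; the smaller batch holds parent arrays only. Cytosolic ribosomal proteins (37 measured, 32 tested) had 10 higher and 2 lower there, or 37.5%, against the same 15.9%, with a median of 0.29 and 0 called. With the block that median was 0.07.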

How the data were processed

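The data are 1-colour oligonucleotide arrays of total RNA from female heads, 10 in all. The deposited values are a linear intensity per probe set, as the authors scaled it, with the software and the scaling rule not given in the sources used here, and every array had the same trimmed mean. Of 14010 probe sets, 44 were controls; of the other 13966, 12443 mapped to 1 gene, 327 to several and 1196 to none in the platform annotation, and 12394 symbols were updated through Entrez to RefSeq. Intensities under the 20th percentile of all arrays (38.9) were raised to it and log2 taken; probe sets with a mean over the 40th percentile (8379) were tested in limma 3.58.1 (R 4.3.3) with a variance trend and Benjamini-Hochberg adjustment at 0.05. Parents were compared on 4 arrays; lines with parents and the 3 chromosome origins in additive models on all 10. The scripts were tested on simulated data. The number of arrays limits the precision. The members and gene lists were chosen with earlier results of these data known, and no list was tested as a set. Genes named were mRpL43, members called with or without the block, the 2 largest differences each way per comparison, the 3 brightest, the 3 dimmest, the 2 widest, and tko and bonsai. Gene spans came from RefSeq (Release 6 plus ISO1 MT). Alternatives were the scaling, the floor, the filter, the probe set rule, the variance trend, the block and leaving out arrays; the blocked fit without the trend and the fit without Fr 1, Z30 1 and MZM were added after seeing the data.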

Additional observations from a re-analysis of the deposited data

Results flagged for a closer look

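Among 21 values tested in 168 groups of 4 to 6 arrays, 10 arrays (5.95%) stood so far from the rest of their group that the gap to the nearest array exceeded Dixon's 95% limit, and chance flags about 1 in 20 groups. The members' median log2 deviation of 0.26 in MZM lay far from the other lines (gap 0.680 of the range), and that of 0.30 in Fr 1 lay far from the other parent arrays (0.878). mRpL43 was high in MZM among lines (0.662), and mRpL41 was low in Fr 2 among parents (0.864). In the arrays with the first chromosome from Z30, Z30 1 was high for mRpL38 (0.872) and low for mRpL3 (0.738), and Z30 2 was high for mRpL14 (0.719). In those with the first chromosome from Fr, Fr 1 was high for mRpL32 (0.718). For mRpS16, Fr 1 was high among arrays with the second chromosome from Fr (0.741) and Z30 1 among those with the third from Z30 (0.726). Of the 10, 8 were on Fr 1, Z30 1 or MZM.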

How the results depend on the processing

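The count of members called was 0 in every comparison under every alternative run except 1: with the replicate number as a block, which is also the array batch, 3 members were called between Z30 and Fr (mRpL38, mRpL3 and mRpL4), and 0 without the variance trend. The labels do not pair the parent arrays. Deviations of same-numbered arrays correlated with r = 0.642 over 8379 probe sets and 0.214 over the 63 tested members, in 2 pairs. The block raised the calls over all probe sets to 551, against 3 without it, and to 47 when the blocked fit used no variance trend. Leaving out 1 array at a time, the members' median difference was -0.26 to -0.052 for Z30 against Fr, -0.18 to -0.04 for lines against parents, -0.22 to -0.05 for the first, -0.01 to 0.15 for the second and -0.22 to -0.01 for the third chromosome. Without Fr 2, 237 probe sets passed for lines against parents, and no member did. Centring arrays on their medians gave members' medians of -0.03 for lines, 0.17 for the second and -0.23 for the third chromosome. With 2 arrays a strain and 1 a line, the number of arrays limits what could be called, and a difference that was not called is not shown to be absent.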
